A study of Mus musculus with 18 samples.

Results

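Livers of 10-week-old ICR mice, male by the study's methods, given alginate oligosaccharide (AOS) at 10 mg/kg, here called A10, were compared with livers of control mice of the same strain and age, here called Con. The members were the 6 libraries whose labels gave these 2 groups, 3 a side, of 18 liver libraries in all, and the genes whose RPKM averaged 1 or more over these 6 were tested. AOS are short chains cut from alginate, a polysaccharide of brown algae. The other 12 libraries were HS (high-fat diet and streptozotocin, STZ, a compound that damages pancreatic beta cells), HS+A10 (the same with AOS at 10 mg/kg), and HS mice given fecal microbiota from A10 or Con donors, with 3 libraries each. Both A10 and Con mice were without the high-fat diet and STZ by their labels. In the study's donor experiment AOS was given by daily gavage from 3 weeks of age for 3 weeks, and the mice were killed 3 days later. The livers here are given as 10 weeks old, an age past that schedule, so its dosing cannot be assumed for them. Which experiment they came from is not stated. Nothing says that the 3 libraries of a group came from separate animals, so the p-values measure the spread between libraries, which may be technical.

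The liver makes glucose, lipids and bile acids, breaks down foreign compounds and secretes most plasma proteins. When it receives inflammatory signals it makes large amounts of acute-phase proteins such as serum amyloid A. Many of its metabolic genes also cycle over the day under a clock in which REV-ERB alpha and REV-ERB beta, encoded by Nr1d1 and Nr1d2, act as repressors.

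Hepatocyte genes were abundant in every library, with Alb (albumin) between 24367 and 37253 RPKM, and 14 of the 15 hepatocyte markers passed the filter. RPKM scales the reads of a gene by gene length and by library size. Relative depth, read from the spacing of low values, was, among these 6 libraries, lowest in A10 replicate 1 (0.963 of the average library) and highest in Con replicate 1 (1.08). How many reads a library held is unknown, so the counting error of single values cannot be given. In Con replicate 1 the 10 most abundant genes held 39.0% of the RPKM sum, against 29.8% to 34.5% in the other 5.

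Replicate 3 of both groups stood apart from the pattern of the other groups. Among the 142 genes that differed more than 2-fold between Con replicates 1 and 2, Con replicate 3 lay between them in 140 (98.6%), at a median of 0.528 of the way from replicate 2 to replicate 1 (quartiles 0.482 to 0.592). A10 replicate 3 lay between A10 replicates 1 and 2 in 130 of 135 such genes (96.3%), at a median of 0.355 of the way from replicate 2 to replicate 1 (quartiles 0.293 to 0.409). In the other 4 groups a library lay between the other 2 in 56.2% to 74.3% of such genes. Results are therefore also given without replicate 3 of both groups, a setting chosen after this was seen. What made these libraries intermediate was not tested. A library placed between the other 2 narrows the spread of its group and may add little independent information. The SDs, standard errors and p-values given with n = 3 may therefore overstate the precision.

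**Figure D1:**
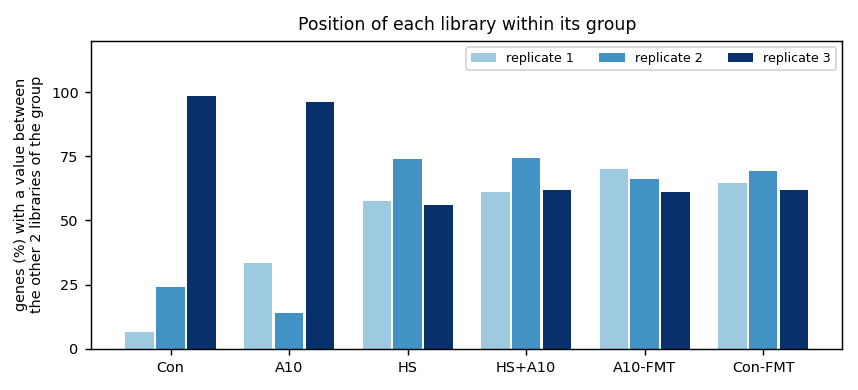
Share of genes (percent, vertical axis) in which each library lay between the other 2 of its group, counted over genes that differed more than 2-fold between those 2, with 1 bar for each of the 18 libraries. Con replicate 3 (98.6%) and A10 replicate 3 (96.3%) stand above every other library, which reach at most 74.3%.

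Few genes passed the test in A10 compared with Con. Of 10093 genes tested, 9 were called at an adjusted p under 0.05 by limma (0.0892% of those tested), 6 higher in A10 (0.0594%) and 3 lower (0.0297%). Those that rose were Nr1d1, Nr1d2, Cyp3a59, Pck1, Nudt19 and Lpin2, and those that fell were Saa2, Moxd1 and Cyp21a1. Changes are differences of mean log2(RPKM + 1), a scale that understates the change of low genes. The unadjusted p was under 0.05 in 1415 genes (14.0%), 1132 of them higher (11.2%) and 283 lower (2.80%). The 3 A10 libraries did not overlap the 3 Con libraries in 1977 genes on the higher side (19.6%) and in 530 on the lower side (5.25%). Over all tested genes the median log2 change was 0.07, with 68.0% higher in A10, and only 27 genes were above 1 and 35 below -1 on the log2 scale.

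The count of calls depended on which libraries entered. Without replicate 3 of both groups limma called 0 genes, with 736 at an unadjusted p under 0.05 (7.29%) and a smallest adjusted p of 0.228. In that setting all 9 genes had the same direction, an unadjusted p under 0.05 and no overlap. The lack of overlap was fixed in advance, since the 9 genes had no overlap in the full set of libraries. The 9 were also selected with the libraries that remained, so this is not separate support for them. Limma also called 0 genes without Con replicate 1 (781 at an unadjusted p under 0.05), without Con replicate 3 (1023) or without A10 replicate 3 (996), whereas 9 were called without A10 replicate 1, 6 without A10 replicate 2 and 85 without Con replicate 2. In a fit of only the 6 libraries 40 genes were called, but Nr1d1, Saa2, Moxd1 and Nudt19 were not among them (adjusted p = 0.0589, 0.0880, 0.114 and 0.0666). With 3 libraries on either side the exact two-sided permutation p cannot go below 0.1, and any gene without overlap has that value by construction.

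**Figure D2:**
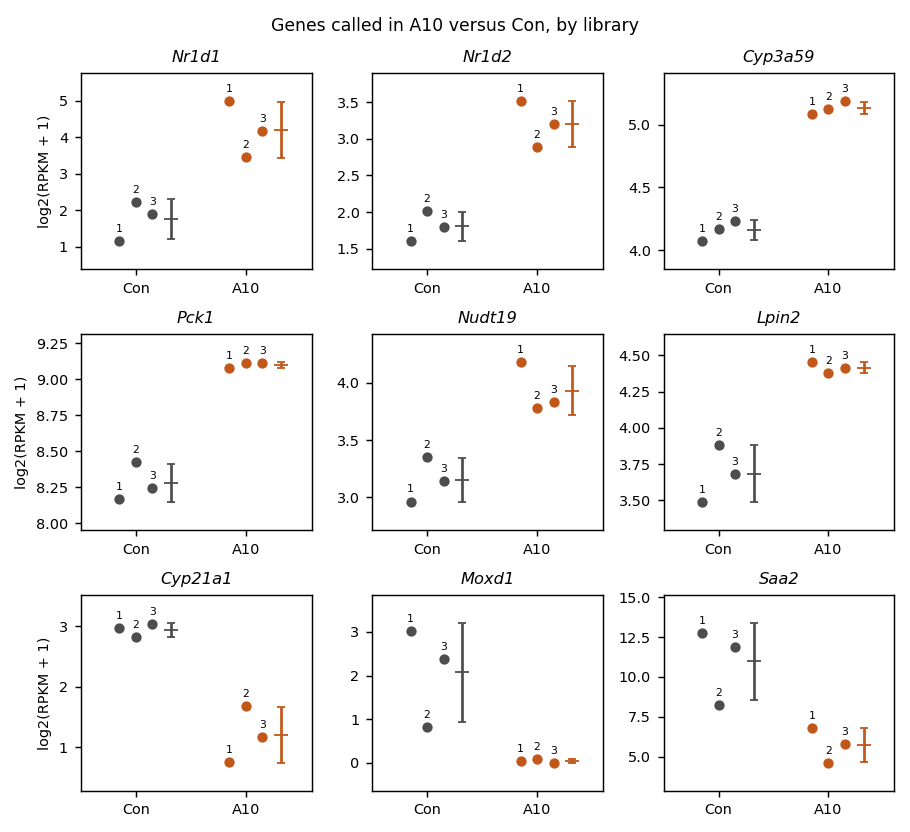
Levels of the 9 called genes as log2(RPKM + 1) (vertical axes, each panel with its own range) in the Con (grey) and A10 (orange) libraries, with points numbered by replicate and bars giving the mean ± SD (n = 3). The groups do not overlap in any panel, and in Moxd1 the Con libraries (0.75 to 7.11 RPKM) are spread far more widely than the A10 libraries (at most 0.06 RPKM).

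Both REV-ERB genes rose. Nr1d2 (chromosome 14, 18204056 to 18239106 in GRCm38) was at 2.05, 3.03 and 2.49 RPKM in Con replicates 1, 2 and 3 and at 10.4, 6.39 and 8.16 RPKM in A10. The means were 2.52 ± 0.491 and 8.32 ± 2.01 RPKM (SD, n = 3), 3.30-fold apart, and limma gave a log2 change of 1.39 ± 0.17 (standard error) with an adjusted p of 0.00635. Nr1d1 (chromosome 11, 98767932 to 98775377) had the largest increase among the called genes. It was at 1.22, 3.68 and 2.72 RPKM in Con and at 30.7, 10.0 and 16.9 RPKM in A10. Its means were 2.54 ± 1.24 and 19.2 ± 10.5 RPKM (SD, n = 3), 7.56-fold apart, with a log2 change of 2.45 ± 0.35 (SE, adjusted p = 0.0130). Nr1d1 overlaps the end of Thra, a thyroid hormone receptor gene on the other strand, and without strand their reads there cannot be told apart. Thra itself was at 4.24, 6.16 and 5.30 RPKM in Con and 6.33, 5.09 and 6.09 in A10 (log2 change 0.14, adjusted p = 0.703), with overlap. For both REV-ERB genes A10 replicate 1 was the highest library and Con replicate 1 the lowest. Without replicate 3 of both groups their log2 changes were 1.39 and 2.54 (adjusted p = 0.228 for each).

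Among the 17 tested genes of the circadian clock these were the 2 called, both higher, beside 0.0594% of all genes. Other members, named here after their values were seen, did not pass the test. Cry1, a repressor of the clock's core activators, had a log2 change of -0.59 (adjusted p = 0.211 by limma). Per2, another repressor, was at 1.68, 6.92 and 4.27 RPKM in Con and at 3.12, 1.33 and 1.99 in A10, so its groups overlapped. The list's median log2 change was 0.07, close to that of all tested genes. The hour at which each liver was taken is not given in the sources used here.

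The other 4 genes that rose act in metabolism. Pck1 (chromosome 2, 173153073 to 173159274) encodes the cytosolic phosphoenolpyruvate carboxykinase, the enzyme that commits carbon to gluconeogenesis. It was at 287, 342 and 302 RPKM in Con and at 540, 553 and 552 in A10. The A10 libraries lay within a narrow band far above the highest Con library. The means were 311 ± 28.6 and 548 ± 7.35 RPKM (SD, n = 3), a log2 change of 0.82 ± 0.13 (SE, adjusted p = 0.0224 from limma), which missed the threshold when all libraries were scaled to the same median (0.75, adjusted p = 0.0720). Lpin2 (chromosome 17, 71183532 to 71249818) encodes a phosphatidate phosphatase, which makes diacylglycerol for triglyceride synthesis. It was at 10.2, 13.7 and 11.9 RPKM in Con and at 20.9, 19.8 and 20.3 in A10, a log2 change of 0.73 ± 0.12 (SE, adjusted p = 0.0224). Nudt19 (chromosome 7, 35547185 to 35558643) encodes a hydrolase of coenzyme A in peroxisomes. It was at 6.79, 9.18 and 7.84 RPKM in Con and at 17.2, 12.8 and 13.3 in A10, a log2 change of 0.78 ± 0.14 (SE, adjusted p = 0.0445). It kept its call in 7 of 18 alternatives, and lost it without a filter (adjusted p = 0.0533).

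Cyp3a59 (chromosome 5, 146079208 to 146114978) belongs to the CYP3A family of cytochrome P450 enzymes, which oxidise drugs and steroids. It was at 15.8, 17.0 and 17.8 RPKM in Con and at 33.0, 33.9 and 35.4 in A10. Its libraries agreed more closely within groups than those of Nr1d1, Nr1d2 or Nudt19. The means of 16.9 ± 0.993 and 34.1 ± 1.22 RPKM (SD, n = 3) were 2.02-fold apart, a log2 change of 0.97 ± 0.13 (SE, adjusted p = 0.0117 from limma). CYP3A genes are similar in sequence and sit together, and the mapping could have split their reads, so the value of this member is uncertain. Cyp3a13, a member of the same family, was lower instead, at 27.0, 23.4 and 27.3 RPKM in Con and 12.1, 8.95 and 10.4 in A10 (log2 change -1.23, adjusted p = 0.198).

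Of the 3 genes that fell, Cyp21a1 was the least spread within Con. It encodes steroid 21-hydroxylase, an enzyme of corticosteroid synthesis known from the adrenal gland (chromosome 17, 34801348 to 34804426). It was at 6.86, 6.06 and 7.22 RPKM in Con and at 0.69, 2.2 and 1.25 in A10, a log2 change of -1.74 ± 0.27 (SE, adjusted p = 0.0224 from limma), and Con was 4.86-fold higher on average. It lies beside a similar copy, so reads could have been shared. Moxd1 (chromosome 10, 24223517 to 24302783), a member of the copper monooxygenase family, was at 7.11, 0.75 and 4.21 RPKM in Con. In A10 it was at 0.02 and 0.06 RPKM in replicates 1 and 2 and was listed at 0 in replicate 3. Its log2 change was -2.03 ± 0.34 (SE, adjusted p = 0.0271), and -1.56 without Con replicate 1 (adjusted p = 0.143). Moxd1 passed the filter only through Con, the group where it is high, and was not tested under the filter at 5 RPKM or that over all 18 libraries.

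Saa2 (chromosome 7, 46751833 to 46754313) had the largest change of the called genes. It encodes serum amyloid A2, an acute-phase apolipoprotein that the liver secretes. It was at 7018, 300.0 and 3826 RPKM in Con replicates 1, 2 and 3 and at 110.2, 23.7 and 54.0 RPKM in A10. Every Con library was above every A10 library, but Con replicate 1 was 23.4-fold above Con replicate 2, which was 2.72-fold above the highest A10 library. On the log2 scale the change was -5.24 ± 0.86 (SE, adjusted p = 0.0253 from limma), -4.33 without Con replicate 1 (adjusted p = 0.155) and -4.79 without replicate 3 of both groups (adjusted p = 0.495).

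Saa2 is 1 of 24 tested genes of the acute-phase response, of which 23 were lower in A10, 1 was called, 12 were lower at an unadjusted p under 0.05 (beside 2.80% of all genes) and 6 were lower with no overlap (beside 5.25%). Their median log2 change was -0.74, against 0.07 for all tested genes. Some of them are named here after their values were seen. Saa1, the close relative of Saa2, was at 6422, 296 and 3570 RPKM in Con and 278, 61.1 and 131 in A10 (log2 change -3.85, adjusted p = 0.0955 from limma). Saa3, a member of the same cluster, was at 344, 22.6 and 195 RPKM in Con and 12.1, 8.19 and 10.5 in A10 (-3.39, adjusted p = 0.0871). The order of the Con libraries was the same in both genes, with replicate 1 highest, replicate 2 lowest and replicate 3 between. Orm2, a plasma glycoprotein, was at 762, 39.8 and 441 RPKM in Con and 33.1, 11.6 and 19.6 in A10 (-3.53, adjusted p = 0.116). Lcn2, which binds bacterial iron carriers, was at 1043, 47.5 and 612 RPKM in Con and 48.7, 8.34 and 22.7 in A10 (-3.82, adjusted p = 0.126), and its groups overlapped.

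The level of the list depended on which Con library it was read against. Con replicate 1 was above all 3 A10 libraries in 22 of the 24 genes (91.7%) and Con replicate 3 in 21 (87.5%). For Con replicate 2 it was 6 (25%), the same share as over all tested genes (25%), and 11 of the 24 genes lay within the A10 range there. Con replicate 3 lay between Con replicates 1 and 2 in 98.6% of the genes that differed more than 2-fold between them. Its count is therefore not separate from that of Con replicate 1. Without Con replicate 1 the list's median was -0.41, and without replicate 3 of both groups it was -0.59. RPKM summed over 13 neutrophil markers moved with it, at 12.2, 3.67 and 8.51 in Con replicates 1, 2 and 3 and 4.84, 3.30 and 3.45 in A10. Only S100a8 and S100a9 of them passed the filter, while Ly6g, Mpo and Elane were at most at 0.70 RPKM, and the part of these cells in the result was not tested. In a bulk sample fewer cells of a type and less RNA per cell cannot be told apart.

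**Figure D3:**
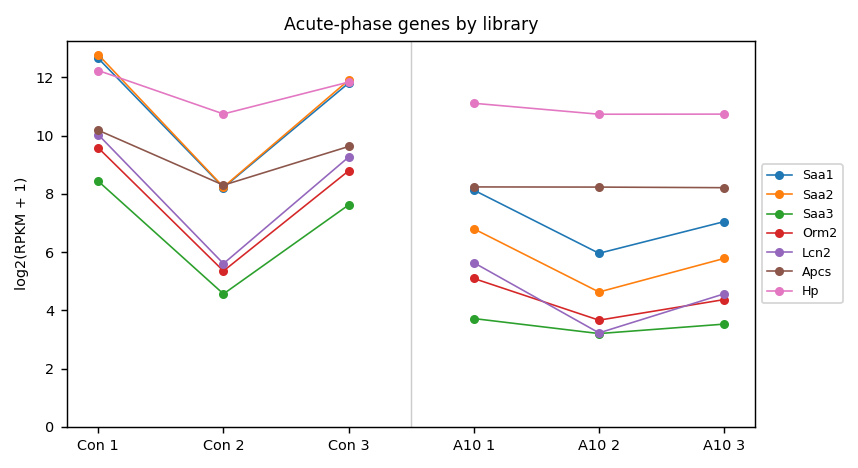
Levels of 7 acute-phase genes as log2(RPKM + 1) (vertical axis) in the 3 Con and 3 A10 libraries (horizontal axis), with 1 coloured line for each gene joining the libraries of a group. Con replicates 1 and 3 stand high, while Con replicate 2 is near the A10 libraries, as in Saa1 with 296 RPKM there and 278 RPKM in A10 replicate 1. Con replicate 3 lies between the other 2 Con libraries in every gene shown, so it may not be a separate high library.

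The promoters of the 3 serum amyloid genes are shown because these genes moved together between libraries, and because the factors C/EBP beta and C/EBP delta are known to act on acute-phase genes. The 250 bases before each start, from RefSeq on GRCm38.p6, are written 5′ to 3′ on the strand of the gene, with the motif TTGCNNAA, searched on both strands, in capitals. They are chr7:46742981-46743230 (minus strand) for Saa1, chr7:46751583-46751832 (plus strand) for Saa2 and chr7:46715677-46715926 (minus strand) for Saa3.
Saa1: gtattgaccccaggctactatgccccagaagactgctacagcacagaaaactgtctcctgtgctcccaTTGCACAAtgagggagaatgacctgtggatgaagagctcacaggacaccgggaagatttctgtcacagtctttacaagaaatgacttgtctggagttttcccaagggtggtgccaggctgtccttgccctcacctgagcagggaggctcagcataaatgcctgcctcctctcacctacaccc
Saa2: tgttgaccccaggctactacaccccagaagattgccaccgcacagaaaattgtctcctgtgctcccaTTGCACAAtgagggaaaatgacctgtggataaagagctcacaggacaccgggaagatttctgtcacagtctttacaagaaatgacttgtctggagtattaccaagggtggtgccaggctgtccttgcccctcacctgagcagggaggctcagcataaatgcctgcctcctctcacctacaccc
Saa3: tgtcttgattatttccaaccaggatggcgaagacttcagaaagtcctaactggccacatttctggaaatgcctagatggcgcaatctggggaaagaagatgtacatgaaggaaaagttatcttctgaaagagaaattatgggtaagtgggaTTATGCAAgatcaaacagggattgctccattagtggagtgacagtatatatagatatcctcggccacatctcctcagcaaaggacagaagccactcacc
The Saa1 and Saa2 windows were identical in 94.8% of aligned positions, and Saa3 was identical in 48.5% to Saa1 and 47.8% to Saa2. Each held the motif 1 time, 182 bases before the start in Saa1, 183 in Saa2 and 99 in Saa3, where it reads on the opposite strand. Of the 20 tested acute-phase genes with a window, 12 held it (60%), against 10.8% of all 27025 genes with a window. A match is a description of these letters and not evidence of binding. The high identity of Saa1 and Saa2 extends to a gene family whose reads the mapping could have split, so their separate values are uncertain.

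Of 20 tested genes of gluconeogenesis, glycolysis and glycogen, 16 were higher (beside 68.0% of all genes) and 5 were higher without overlap (beside 19.6%), with a median log2 change of 0.17, and Pck1 was called. Named after their values were seen, Ugp2, which makes the sugar nucleotide for glycogen, was at 56.1, 72.7 and 62.4 RPKM in Con and 97.3, 90.1 and 97.5 in A10 (0.57, adjusted p = 0.0955 from limma). Gbe1, the glycogen branching enzyme, had a log2 change of 0.58 (adjusted p = 0.149) and G6pc, the phosphatase that releases free glucose, one of 0.71 (adjusted p = 0.259). Neither overlapped between groups. Of 28 genes of the urea cycle and amino acid breakdown, 25 were higher (beside 68.0% of all genes), with a median of 0.18 and 0 called. An unadjusted p under 0.05 was reached by 3, all higher, a share near the 11.2% of all genes. Tdo2, which opens tryptophan breakdown, was among the 3 (0.55, adjusted p = 0.0955 from limma). In the periportal hepatocyte list, 15 of 17 genes were higher (median 0.26, beside 68.0% of all genes higher), and Pck1 was the 1 called (beside 0.0594% of all genes).

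For genes bound and activated by PPAR alpha, the receptor that senses fatty acids, all 21 tested members were higher, with a median log2 change of 0.42, 0 called, 6 at an unadjusted p under 0.05 and 11 without overlap (beside 19.6% of all genes). Angptl4, a secreted inhibitor of lipoprotein lipase, was at 17.3, 25.04 and 21.3 RPKM in Con and 45.1, 46.1 and 45.3 in A10, a log2 change of 1.08 ± 0.24 (SE, adjusted p = 0.0955 from limma). Cyp4a10 and Cyp4a14, fatty acid hydroxylases of similar sequence named after their values were seen, were high in A10 replicate 1 above all. Cyp4a14 was at 0.20, 0.57 and 0.55 RPKM in Con and 8.78, 1.06 and 3.37 in A10 (log2 change 1.64, adjusted p = 0.434). With a mean of 0.44 RPKM in Con, Cyp4a14 passed the filter only through A10, the group where it is high. It is nevertheless counted among the 21 higher members and the 11 without overlap. The 21 genes of mitochondrial beta-oxidation were all higher too, with a median of 0.26, 10 of them without overlap, 6 at an unadjusted p under 0.05 and 0 called. Of 20 peroxisomal beta-oxidation genes 19 were higher (median 0.19), with Decr2, a reductase for unsaturated fatty acids, at 0.59 (adjusted p = 0.173). The medians of these 3 lists were 0.31, 0.14 and 0.09 without Con replicate 1, a setting in which that of all tested genes was 0.03.

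In the list of fatty acid and triglyceride synthesis 19 of 21 genes were higher, with a median log2 change of 0.36 and 8 without overlap (38.1%, beside 19.6% of all genes), and Lpin2 was the 1 called. A10 replicate 1 stood out in several. Scd1, which puts the double bond into stearate, was at 676, 815 and 740 RPKM in Con and 2033, 895 and 1328 in A10 (0.85, adjusted p = 0.596 from limma). Fasn, the fatty acid synthase, overlapped between groups, at 40.5, 72.1 and 57.1 RPKM in Con and 112, 46.9 and 68.6 in A10 (0.36, adjusted p = 0.824). The list's RPKM sum was 4351 in A10 replicate 1 and between 1955 and 3169 in the other 5 libraries. Without Con replicate 1 its median was 0.16. Genes of cholesterol synthesis and uptake leaned the other way, with 16 of 24 lower and a median of -0.06, which had the opposite sign under 1 of 18 alternatives.

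In bile acid synthesis and transport 16 of 20 genes were higher (beside 68.0% of all genes), with a median log2 change of 0.21 and 0 called. At an unadjusted p under 0.05 by limma, 7 were higher (beside 11.2%) and 1 lower (beside 2.80%). Without overlap, 10 were higher (beside 19.6%) and 3 lower (beside 5.25%). Cyp7a1, the rate-limiting enzyme of the classical pathway, was lower instead. It was at 30.7, 24.3 and 27.5 RPKM in Con and 8.92, 16.9 and 14.3 in A10, without overlap, a log2 change of -1.02 ± 0.50 (SE, adjusted p = 0.371 from limma). Slc10a1, the carrier that takes bile acids up from blood, was at 245, 359 and 303 RPKM in Con and 511, 365 and 422 in A10 (0.52, adjusted p = 0.174). Of 19 retinoid genes 12 were higher (median 0.08), and of 16 genes of choline and phosphatidylcholine metabolism 10 were (median 0.11), with 0 called in each. Both shares were below the 68.0% of all tested genes that were higher. Cept1, which makes phosphatidylcholine and phosphatidylethanolamine, was at 0.36 (adjusted p = 0.129).

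Among cytochrome P450 enzymes of foreign compounds 24 of 28 were higher, with a median log2 change of 0.31, 0 called and 10 higher at an unadjusted p under 0.05 (beside 11.2% of all genes). Cyp2c39, a member of a family of similar genes, was at 16.6, 33.9 and 24.7 RPKM in Con and 93.0, 43.2 and 63.0 in A10 (1.36, adjusted p = 0.198 from limma). Of 34 conjugation enzymes 26 were higher (median 0.23), beside 68.0% of all genes. Gstt1 had a log2 change of 0.62 (adjusted p = 0.106), while Gstp1, the abundant pi-class glutathione transferase, was at 7600, 7303 and 7745 RPKM in Con and 3914, 4262 and 3798 in A10 (-0.92, adjusted p = 0.180). Among antioxidant genes and targets of NRF2, 19 of 27 were higher (median 0.14), a share near the 68.0% of all genes. Of 19 tested genes known to be male-biased or female-biased in mouse liver, 13 were lower and 8 of these did not overlap between groups (beside 5.25% of all genes), with a median of -0.24. The list pools genes of opposite bias, so these values do not show a shift toward either sex. Mup20, a urinary protein from a family of near-identical genes, was at 6428, 2436 and 3988 RPKM in Con and 968, 1313 and 1286 in A10 (-1.75, adjusted p = 0.0771), and C6, a complement component, had a log2 change of -0.88 (adjusted p = 0.133).

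Of 23 interferon-stimulated genes 22 were higher in A10, with a median log2 change of 0.39, 7 at an unadjusted p under 0.05 and 0 called, and 3 did not overlap between groups, or 13%, beside 19.6% of all genes. A10 replicate 1 was like Con in several of them. Ifit3 was at 2.52, 2.78 and 3.13 RPKM in Con and 2.81, 7.39 and 7.46 in A10 (0.77, adjusted p = 0.244 from limma), and Ifi44 at 1.04, 1.14 and 1.16 in Con and 1.11, 4.54 and 4.31 in A10 (0.91, adjusted p = 0.259). The list's RPKM sum was lowest of all 6 libraries in A10 replicate 1 (324) and highest in A10 replicate 2 (659). For MHC and antigen presentation 15 of 16 genes were higher (median 0.31, 9 without overlap), with H2-T23, a nonclassical class I gene of a family of similar genes, at 51.5, 54.8 and 54.2 RPKM in Con and 81.9, 91.3 and 82.1 in A10 (0.66, adjusted p = 0.305). Markers of Kupffer cells and macrophages had a median of 0.11, with 0 of 15 called, and their RPKM sum overlapped between the groups, from 157 to 251 in Con and from 199 to 262 in A10.

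Chaperones were mostly lower. Of 20 genes of endoplasmic reticulum chaperones and protein degradation 15 were lower, 11 of them without overlap (beside 5.25% of all genes), with a median log2 change of -0.18, 1 lower at an unadjusted p under 0.05 and 0 called. Herpud1, which serves the degradation of misfolded proteins, was higher instead, at 68.8, 79.5 and 74.97 RPKM in Con and 171, 100.03 and 118 in A10 (0.76, adjusted p = 0.168 from limma). Of 21 cytosolic heat shock genes 17 were lower (median -0.10). Hspb1, a small heat shock protein, was at 66.6, 65.7 and 70.2 RPKM in Con and 22.2, 44.7 and 30.4 in A10 (-1.09, adjusted p = 0.299). In the lists on the ATF4 stress response, immediate-early genes, glucocorticoid targets, insulin and growth hormone signalling and splicing, the medians were between 0.10 and 0.18, with Pck1, a glucocorticoid target, the 1 called. The 76 ribosomal protein genes had a median of 0.00 and the 31 proteasome genes 0.02, and the 59 genes of oxidative phosphorylation had 0.06. Each of these 3 medians had the opposite sign under 3 or 4 of 18 alternatives.

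**Figure D4:**
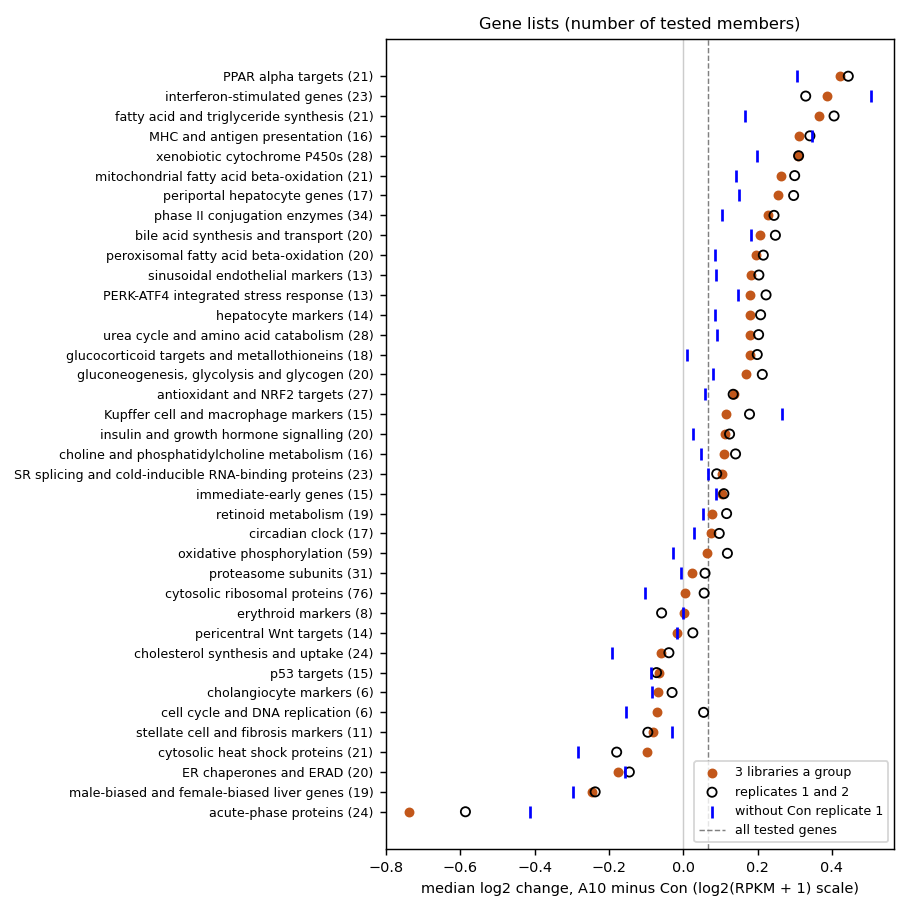
Median log2 change, A10 minus Con (horizontal axis), of the tested members of each gene list (rows, number of members in brackets) with 3 libraries a group (filled circles), with replicates 1 and 2 of each group (open circles) and without Con replicate 1 (bars), and of all tested genes (dashed line). Only lists with at least 6 tested members are shown, without the list of the study's liver genes. Among the lists shown, acute-phase proteins lie lowest (-0.74) and PPAR alpha targets highest (0.42). The neutrophil list, with 2 tested members and a median of -0.82, is not shown.

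Of the markers of other cell types 0 were called by limma, and 2 were higher and 3 lower at an unadjusted p under 0.05. The 8 erythroid markers had a median log2 change of 0.00, which ranged from -0.14 to 0.77 and took the opposite sign under 7 of 18 alternatives. Hba-a1, an alpha globin, was at 1854, 894 and 1471 RPKM in Con and 2014, 2494 and 2133 in A10, without overlap (0.71, adjusted p = 0.548 from limma). Endothelial markers had a median of 0.18 (12 of 13 higher, 0 called), stellate cell markers -0.08 (7 of 11 lower, 3 of them without overlap, or 27.3%, beside 5.25% of all genes) and cholangiocyte markers -0.07 (3 of 6 lower, with 2 higher and 1 lower without overlap), the last of opposite sign under 3 of 18 alternatives. Of 20 lymphocyte markers 2 passed the filter. Adiponectin (Adipoq) and perilipin 1 (Plin1), which define adipocytes, were listed at 0 in all 6 libraries, as was the trypsinogen gene Prss1 of the exocrine pancreas. Other members of these lists were present. Of 12 adipocyte markers 4 passed the filter, namely Car3 (2046 to 4071 RPKM), Fabp4 (7.31 to 10.43), Lipe (4.03 to 5.01) and Cd36 (1.85 to 3.79). Of 25 exocrine pancreas markers 1 passed, Cela1 (30.55 to 48.8 RPKM).

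Of the 13 liver genes that the study named or measured as protein, 11 passed the filter and 0 were called by limma, and 0 were so at an unadjusted p under 0.05. Cyp7a1, given above, was the lowest. Acaa1a, a peroxisomal thiolase, was at 68.9, 90.6 and 79.2 RPKM in Con and 108, 96.5 and 92.4 in A10 (0.32, adjusted p = 0.397). Acaa2, a mitochondrial thiolase, had a log2 change of 0.20 (adjusted p = 0.548). Nr1h3 and Nr1h4, the receptors for oxysterols and bile acids, and Acox2, which shortens bile acid side chains, were at -0.05, -0.07 and -0.02, and all 3 had the opposite sign when libraries were scaled to the same RPKM sum. Rbp4, Gpx1 and Bax were at 0.15, 0.07 and -0.19, with adjusted p-values between 0.595 and 0.734.

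Since the called genes were few, those next in rank by unadjusted p are given as not called. On the higher side, Pltp, the phospholipid transfer protein of plasma, was at 9.13, 16.6 and 13.1 RPKM in Con and 52.6, 22.6 and 30.01 in A10 (log2 change 1.32, adjusted p = 0.0626 from limma). Slc7a2, a carrier of cationic amino acids, was at 11.7, 14.7 and 14.1 RPKM in Con and 27.3, 23.4 and 26.6 in A10 (0.89, adjusted p = 0.0626). Neither gene overlapped between the groups. Tspan12, Rec114, Havcr1 and Nsmce2 had log2 changes of 0.44, 1.12, 0.64 and 0.54, with adjusted p-values between 0.0676 and 0.0713. Havcr1, at a mean of 0.96 RPKM in Con, passed the filter only through A10, the group where it is high. On the lower side, Ppard, which encodes PPAR delta, was at 16.0, 18.1 and 18.7 RPKM in Con and 7, 10.9 and 9.11 in A10 (-0.91, adjusted p = 0.0760). Scara5, a scavenger receptor, was at 12.03, 4.08 and 8.39 RPKM in Con and 2.83, 1.94 and 2.29 in A10 (-1.36, adjusted p = 0.0650), again highest in Con replicate 1. Tubb6, a beta tubulin, was even within groups, from 6.51 to 6.62 RPKM in Con and from 3.01 to 3.31 in A10 (-0.87, adjusted p = 0.0713). Slc34a2, Ces4a, Nat8f6, Trmt61a and Nolc1 had log2 changes between -1.14 and -0.48 and adjusted p-values between 0.0569 and 0.0749. Of these, Ces4a and Nat8f6, at means of 0.73 and 0.68 RPKM in A10, passed the filter only through Con, the group where they are high.

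The effect of AOS was then set against its effect in mice with the high-fat diet and STZ, where HS+A10 was compared with HS in 6 other libraries. There limma called 729 (7.22%), made up of 285 on the higher side (2.82%) and 444 on the lower (4.40%). Among the 9 genes called in A10 compared with Con, 8 had the same direction and 3 were called in it, and 0 were called in the opposite direction. The 3 were Nr1d1, Nr1d2 and Lpin2. Nr1d2 was at 8.88, 8.41 and 8.18 RPKM in HS and 23.8, 20.1 and 20.1 in HS+A10, a log2 change of 1.23 (adjusted p = 0.00323 from limma). Nr1d1 was at 17.2, 20.1 and 27.0 RPKM in HS and 49.7, 58.5 and 50.7 in HS+A10 (1.29, adjusted p = 0.0402). Both genes were thus higher with AOS on either background, and the HS means (8.49 and 21.4 RPKM) were already above the A10 means. Lpin2 was at 13.5, 17.0 and 17.6 RPKM in HS and 31.8, 24 and 26.6 in HS+A10 (0.74, adjusted p = 0.00400). Pck1, Cyp3a59 and Nudt19 had log2 changes of 0.07, 0.17 and 0.07 there (adjusted p = 0.807, 0.485 and 0.788), and their differences from the change in A10 compared with Con were 0.76, 0.81 and 0.71 (adjusted p = 0.150, 0.144 and 0.175).

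A test of the difference between the 2 effects called 5 genes (0.0495%), 2 with a higher and 3 with a lower change in A10 compared with Con, and 1 of these is a gene model without a name. Among the 4 named genes the larger differences were in clock-controlled genes, Dbp and Usp2. Dbp, a transcription factor under direct control of the clock, was at 0.66, 0.58 and 0.68 RPKM in Con, 3.41, 0.36 and 1.78 in A10, 1.79, 2.22 and 1.17 in HS and 97.5, 47.3 and 52.8 in HS+A10. Its log2 change was 0.64 in A10 compared with Con and 4.56 in HS+A10 compared with HS, a difference of -3.92 ± 0.50 (SE, adjusted p = 0.00776 from limma). Usp2, a deubiquitinating enzyme that cycles with the clock, was at 1.31, 2.01 and 1.66 RPKM in Con, 0.82, 0.42 and 0.77 in A10, 0.56, 1.28 and 0.64 in HS and 13.5, 3.03 and 6.99 in HS+A10. Its changes were -0.67 and 2.11, a difference of -2.78 ± 0.46 (SE, adjusted p = 0.0426). Dbp, at a mean of 0.64 RPKM in Con, passed the filter only through A10, and Usp2, at 0.67 RPKM in A10, only through Con. The HS and HS+A10 libraries did not enter the filter. Slc25a22, which carries glutamate into mitochondria, changed by 0.40 and -0.49, a difference of 0.89 (adjusted p = 0.0426), and Nfxl1, a zinc finger protein, by 0.25 and -0.66, a difference of 0.92 (adjusted p = 0.0426).

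Of the 17 clock genes, HS+A10 compared with HS gave 7 higher calls (beside 2.82% of all genes) and 5 lower ones (beside 4.40%). A10 compared with Con gave 2 higher (beside 0.0594%) and 0 lower (beside 0.0297%). Tef, a relative of Dbp named after its values were seen, had a log2 change of 1.77 in HS+A10 (adjusted p = 0.00386 from limma) and 0.46 in A10 (adjusted p = 0.467). Cry1 was lower in both, with -1.17 (adjusted p = 0.00432) and -0.59 (adjusted p = 0.211). Apart from Dbp and Usp2, the difference of the effects was called for none of these genes. Without replicate 3 of both groups limma called 0 genes for the difference, with 871 at an unadjusted p under 0.05.

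**Figure D5:**
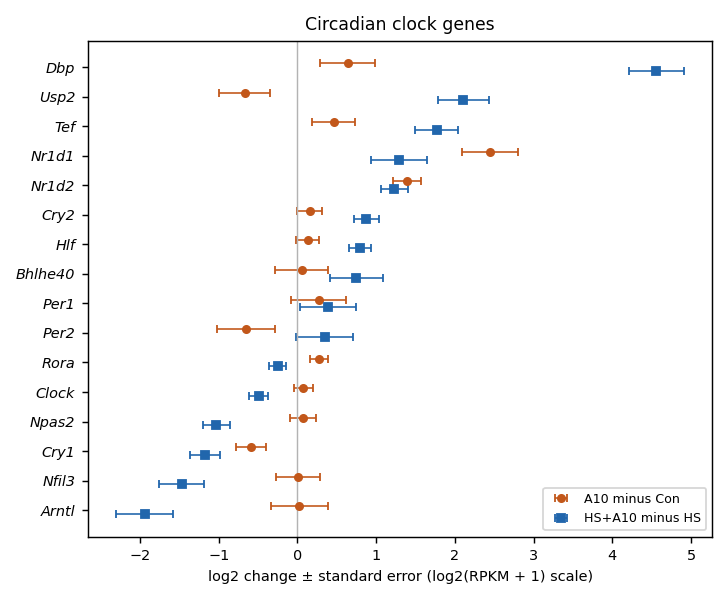
Log2 change ± standard error (horizontal axis) of 16 of the 17 tested clock genes (rows) in A10 minus Con (circles) and HS+A10 minus HS (squares), from the limma fit of 18 libraries. Dbp is at 0.64 and 4.56, while Nr1d2 is at 1.39 and 1.23.

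In HS compared with Con, which shares the Con libraries with the comparison above, the log2 change was 2.71 in Nr1d1, 1.44 in Nr1d2, 1.72 in Pck1, -4.76 in Saa2 and -2.02 in Moxd1. The values of A10 compared with Con for these genes were 2.45, 1.39, 0.82, -5.24 and -2.03. Saa2 was between 33.3 and 133 RPKM in HS and Moxd1 at 0.02 or 0.04 RPKM, levels near those of A10. Because the Con libraries enter both comparisons, these values are given side by side only.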

How the data were processed

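The 18 liver libraries were made from messenger RNA enriched with oligo(dT) beads. The authors corrected read numbers for gene length and library size and deposited RPKM, with 2 decimals, in 1 table of 19057 genes. The paper names SOAPaligner, and the submitters' processing notes name Bowtie 0.12.2 and mm10. Counting by strand is not given in the sources used here. The values were used as deposited. In 26 rows a date stood in place of the symbol, 3 symbols occurred more than once, and 0 columns lacked a sample.

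Groups were taken from the labels. Log2(RPKM + 1) was fitted with limma 3.58.1 in R 4.3.3, with 1 mean for each of the 6 groups (18 libraries), a variance trend with expression and two-sided p-values adjusted by the Benjamini-Hochberg method over the 10093 genes whose RPKM averaged 1 or more in the 6 A10 and Con libraries. The residual degrees of freedom were 12. DEGseq, the study's test, needs read counts and was not used. The fit was tested on simulated data. Figures and sequences were made in Python 3.11.15, with positions and promoters from RefSeq (GRCm38.p6, which is mm10). Named were all called genes, then the genes with the smallest unadjusted p up to 12 in each direction, called members of each of 43 gene lists or else up to 2 with the smallest p, the study's liver genes and the called differences of the effects. Others were chosen after their values were seen, and some genes under this rule are left out of the text. The members and the lists were chosen with earlier results of these data known. Alternatives were other pseudocounts, filters, scalings, fits and thresholds, and leaving out libraries.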

Additional observations from a re-analysis of the deposited data

Results flagged for a closer look

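For 4 named genes the change in A10 compared with Con differed from that in HS+A10 compared with HS by limma's test of the difference, which shares no library between the 2 effects. The difference of the log2 changes was -3.92 in Dbp (adjusted p = 0.00776), -2.78 in Usp2 (adjusted p = 0.0426), 0.89 in Slc25a22 (adjusted p = 0.0426) and 0.92 in Nfxl1 (adjusted p = 0.0426). In Dbp the 3 HS+A10 libraries were all far above the other 9, and in Usp2 they were all above the other 9. Dbp passed the filter only through A10 and Usp2 only through Con. In Slc25a22 every A10 library was above every Con library and every HS+A10 library below every HS library. The same held for Nfxl1, but its lowest A10 library (3.14 RPKM) was barely above its highest Con library (3.13 RPKM). Groups of 3 libraries were not tested for outlying samples.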

How the results depend on the processing

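The 9 calls in A10 compared with Con became 0 under the study's threshold (0.001 for the adjusted p and 1 for the absolute log2 change), 16 without a filter, 23 with quantile normalization (9 higher and 14 lower, against 6 and 3), 40 in a fit of only the 6 libraries (24 higher and 16 lower, without Nr1d1, Saa2, Moxd1 and Nudt19) and 0 without replicate 3 of both groups, and leaving out single replicates gave 0 to 85. Scaling to the same median gave 10, with 5 in each direction. The 9 genes themselves had the same direction under every alternative in which they were tested, but these settings reuse libraries that selected them. Over all genes the median change was 0.0030 with quantile normalization, -0.0038 with the same median and 0.127 with the same RPKM sum in each library. The 5 called differences between the effects became 3 with a pseudocount of 0.1, 2 without a filter, 0 at a mean of at least 5 RPKM (904 at an unadjusted p under 0.05), 1 with the filter over all 18 libraries, 3 with quantile normalization, 1 with the same median, 8 in a fit of the 12 libraries, 0 without replicate 3 of both groups, and 1 to 103 with single replicates left out, the last without HS replicate 1. The cause was not tested in any of these, beyond the fewer samples or genes that some settings hold.

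Log2 changes close to 0 took the opposite sign in Psmb7 (-0.0023 with quantile normalization), Nr1h3 (0.016) and Nr1h4 (0.0043) with the same RPKM sum, and Acox2 with the same RPKM sum (0.053) and without replicate 3 of both groups (0.044). Over single replicates left out, the range was -0.127 to 0.0037 in Nr1h4, -0.138 to 0.093 in Acox2, -0.025 to 0.243 in Ebp and -0.105 to 0.224 in Cela1. The lymphocyte and neutrophil lists had no gene at a mean of at least 5 RPKM. Deviations of A10 and Con libraries with the same replicate number were correlated at -0.00149, 0.00248 and -0.0624. The scatter of single genes could hide a shared preparation, so these values do not decide whether the numbers pair samples. With a replicate block 11 genes were called, 5 higher and 6 lower, and 7 differences between the effects. Depth in reads is unknown, and precision rests on 3 libraries a group, of which replicate 3 of A10 and of Con may not be independent.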
